A study of Mus musculus with 2 samples.

Results

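The regions described here are the bidirectional promoters of protein-coding gene pairs in the kidney of newborn mice. They were chosen by annotation and not by signal. A pair was a protein-coding gene on the minus strand and a protein-coding gene on the plus strand of the same autosome, transcribed away from each other, whose most 5′ transcription start sites (TSSs) in GENCODE release M21 lay at most 1000 bp apart. The annotation held 735 such pairs, formed by 1450 of the 20807 autosomal protein-coding genes (6.97%). Because 20 genes belonged to more than 1 pair and some regions overlapped, the pairs came from 715 separate loci, and 74 pairs included a predicted or clone-named gene. The region of a pair was the span between both TSSs plus 500 bp at each end. The distance between the TSSs, called the gap below, had a median of 128 bp and quartiles of 66 and 240 bp, and ran from 0 to 987 bp.

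DNase-seq was performed on kidney tissue of the mouse strain B6NCrl on the day of birth (postnatal, age 0 days). The data hold 1 group of 2 biological replicates and no other strain, age, tissue or treatment, so the comparisons were between kinds of promoter within each replicate. The labels give both replicates a single donor record, state that sex was not collected, and do not say that the tissue came from separate animals. The spread between the replicates may therefore be technical. As a check of the tissue, all 11 genes of a kidney marker list (among them Six2, Wt1 and Pax2) had a peak within 1000 bp of a TSS in both replicates. None of 8 genes of other cells (Alb, Myh4, Crx, Ddx4, Adgre1, C1qb, Alas2 and Cyp11b1) had one in either replicate. The share of all genes was not counted by this measure. Within 500 bp of the most 5′ TSS, 66.6% of all autosomal protein-coding genes had a peak in both replicates, so the kidney list is a weak check. Some of its signals were low, such as 17.4 and 12.2 for Hnf4a. A missing peak does not show that the other cells were absent. The lists held 266133 peaks in replicate 1 and 257133 in replicate 2. They carry no read counts, so the depth of each library is unknown, and with 1 group no test between groups exists. Each value is reported for replicate 1 and replicate 2 or as their mean ± SD (n = 2), and exact (Clopper-Pearson) 95% intervals of shares cover counting error only.

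DNase I cuts DNA that is not wrapped around nucleosomes, so a peak of cuts marks open chromatin. At an active promoter the open stretch lies just upstream of the TSS, where the polymerase and the general factors assemble, and the first nucleosome sits just downstream. In a head-to-head pair the upstream sequence of 1 gene is also that of its partner, so a single open stretch can serve both genes. Mammalian bidirectional promoters are mostly rich in CpG and poor in TATA boxes, and are known for housekeeping genes such as those of DNA repair and mitochondria.

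The sequences between the TSSs of 9 pairs are shown because the results below turn on them. They are from GRCm38 (the same build as mm10), plus strand, 5′ to 3′, starting 1 base after the TSS of the minus-strand gene and ending 1 base before that of the plus-strand gene. Where that stretch was longer than 300 bp, the 300 bp about the strongest peak of replicate 1 inside it are given. Capitals mark exact matches, on either strand, to 1 of 8 short motifs: the NRF1 core CGCATGCG, the ETS motif CCGGAAG, the NFY motif CCAAT (read as ATTGG on the other strand), the SP/KLF motif GGGCGG (read as CCGCCC), the YY1 motif AAGATGGCG, the CRE TGACGTCA, the E-box CACGTG and the TATA motif TATAAA (read as TTTATA). The first 4 sequences belong to the pairs that ranked highest by signal.
Hjurp/Trpm8 (chr1:88277634-88277660): ggggagggacgagagggagggtccgcc
Cdca2/Kctd9 (chr14:67715842-67715936): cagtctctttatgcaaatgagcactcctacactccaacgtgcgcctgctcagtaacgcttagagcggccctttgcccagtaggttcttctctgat
Prr11/Ska2 (chr11:87108786-87109085): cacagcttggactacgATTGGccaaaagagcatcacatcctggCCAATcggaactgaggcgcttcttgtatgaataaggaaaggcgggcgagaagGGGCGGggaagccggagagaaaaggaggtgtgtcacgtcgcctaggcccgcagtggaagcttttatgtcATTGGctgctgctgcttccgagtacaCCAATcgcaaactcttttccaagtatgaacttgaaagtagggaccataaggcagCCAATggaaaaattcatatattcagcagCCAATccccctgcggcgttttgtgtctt
Aamp/Pnkd (chr1:74284739-74284929): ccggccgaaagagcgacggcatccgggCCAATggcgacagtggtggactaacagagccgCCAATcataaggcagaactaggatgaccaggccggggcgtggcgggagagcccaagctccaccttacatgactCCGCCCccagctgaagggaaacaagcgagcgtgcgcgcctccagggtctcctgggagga
The Prr11/Ska2 stretch held 6 NFY matches and 1 SP/KLF match, and the Aamp/Pnkd stretch held 2 and 1. The stretches of Hjurp/Trpm8 and Cdca2/Kctd9 held none of the 8 motifs. They were only 27 and 95 bp long, against 300 bp for Prr11/Ska2 and 191 bp for Aamp/Pnkd. Both are shorter than a peak of 150 bp, so the lack of a match does not extend to the rest of the peak.

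The next 3 sequences join genes that act in the same structure or process: mitochondrial translation, the basement membrane of the glomerulus, and the slit diaphragm of podocytes (the filtering cells of the glomerulus).
Mrps12/Sars2 (chr7:28741821-28741991): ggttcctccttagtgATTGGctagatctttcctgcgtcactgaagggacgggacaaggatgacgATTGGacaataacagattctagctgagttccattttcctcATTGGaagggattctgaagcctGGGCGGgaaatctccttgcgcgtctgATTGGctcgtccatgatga
Col4a4/Col4a3 (chr1:82586850-82586920): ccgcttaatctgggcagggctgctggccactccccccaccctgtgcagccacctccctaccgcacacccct
Kirrel2/Nphs1 (chr7:30457691-30457990): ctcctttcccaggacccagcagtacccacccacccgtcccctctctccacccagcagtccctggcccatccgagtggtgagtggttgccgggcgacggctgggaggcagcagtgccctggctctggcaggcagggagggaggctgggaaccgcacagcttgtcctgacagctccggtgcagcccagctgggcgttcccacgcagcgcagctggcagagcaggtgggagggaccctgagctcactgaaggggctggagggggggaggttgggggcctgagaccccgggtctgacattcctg
The Mrps12/Sars2 stretch held 4 NFY matches and 1 SP/KLF match, whereas those of Col4a4/Col4a3 and Kirrel2/Nphs1 held no match to any of the 8 motifs. These stretches were 171, 71 and 300 bp long in that order, so the counts are not over equal lengths. The last pair of sequences comes from the histone cluster of chromosome 13, from a pair with the highest histone signal and from a pair with no peak.
Hist1h2ac/Hist1h2bc (chr13:23683949-23684198): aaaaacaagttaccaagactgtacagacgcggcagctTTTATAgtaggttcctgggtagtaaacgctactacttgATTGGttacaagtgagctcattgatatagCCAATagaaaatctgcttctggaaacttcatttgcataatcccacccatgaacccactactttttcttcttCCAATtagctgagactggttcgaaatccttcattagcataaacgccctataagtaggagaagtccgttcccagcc
Hist1h2bq/Hist1h2ao (chr13:21810198-21810464): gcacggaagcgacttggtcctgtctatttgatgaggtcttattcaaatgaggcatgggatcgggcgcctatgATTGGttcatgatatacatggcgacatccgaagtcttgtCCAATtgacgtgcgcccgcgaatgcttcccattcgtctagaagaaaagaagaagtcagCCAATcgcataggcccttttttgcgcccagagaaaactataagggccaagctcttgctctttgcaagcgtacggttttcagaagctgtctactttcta
Each of these stretches held 3 NFY matches, and that of Hist1h2ac/Hist1h2bc also held 1 TATA match.

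Nearly all bidirectional promoters were open in newborn kidney. Of the 735 regions, 710 had a peak in replicate 1 and 713 in replicate 2. A peak was present in both replicates in 710 regions (96.6%, interval 95.0 to 97.8), in replicate 2 alone in 3, and in neither in 22 (2.99%, 1.89 to 4.50). No region had a peak in replicate 1 alone (0%, interval 0 to 0.501). Counted once per locus, 691 of 715 regions (96.6%) had a peak in both. Taken gene by gene, 1395 of the 1450 genes (96.2%, 95.1 to 97.1) had a peak within 500 bp of the most 5′ TSS in both replicates. The background was 66.6% of all autosomal protein-coding genes and 62.6% of single genes. A single gene is here a protein-coding gene with no TSS of another protein-coding gene within 1000 bp of its most 5′ TSS, and there were 17866.

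For a comparison over windows of equal width, the window of each single promoter (500 bp to each side of the TSS) was extended upstream by every gap of the pairs in turn, and the values were averaged over the gaps. On that footing 96.8% ± 0.289 of pair regions and 64.4% ± 0.109 of single promoters had a peak. The difference was 32.4 ± 0.180 percentage points and exceeded the spread between replicates. Single promoters that had a noncoding gene (lncRNA) starting head to head within 1000 bp, 729 in all, lay between them at 88.5% ± 0.0870. Single promoters with no start of any other gene within 1000 bp, 15982 in all, were at 61.8% ± 0.0854.

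The openness of a promoter moved with its CpG content, and the genes of pairs were rich in CpG. Median CpG observed over expected within 500 bp of the TSS was 0.777 for genes of pairs, 0.498 for single genes and 0.767 for single genes with a head-to-head lncRNA. When all genes were split into 5 equal groups (quintiles) by this value, 40.3% of pair genes fell in the highest and 34.8% in the next, against 17.5% and 18.2% of single genes. Single genes weighted to the quintiles of the pair genes had a peak in 93.0% ± 0.0488, which left a difference of 3.51 ± 0.244 percentage points.

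Within quintiles the share with a peak in both replicates was higher for pair genes, by the least in the highest quintile. The intervals stayed apart with every way of counting only in the middle quintile and the fourth. In the lowest quintile 5 of 24 pair genes (20.8%, interval 7.13 to 42.2) and 8.71% of single genes (7.86 to 9.62) had one, so the intervals overlapped. In the next quintile the shares were 59.6% of 47 pair genes (44.3 to 73.6) and 38.8% of single genes (37.3 to 40.4). In the middle quintile they were 95.8% (92.9 to 97.8) and 87.3% (86.2 to 88.4), and in the fourth 99.8% (98.9 to 99.995) and 96.4% (95.7 to 97.0). In the highest quintile the shares were 99.3% (98.3 to 99.8) and 98.9% (98.4 to 99.2), and the intervals overlapped again. Partners of a pair share a promoter, so the intervals for pair genes are too narrow, and the shares were also counted with 1 gene per locus. Using the minus-strand gene of each locus, the next-lowest quintile had 61.9% of 21 genes (38.4 to 81.9), the middle 96.6% of 145 (92.1 to 98.9) and the fourth 99.6% of 254 (97.8 to 99.99). Using the plus-strand gene, they had 57.7% of 26 (36.9 to 76.6), 95.7% of 140 (90.9 to 98.4) and 100% of 243 (98.5 to 100). With either gene the intervals of pairs and single genes did not overlap in the middle quintile and the fourth, and overlapped in the next-lowest.

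**Figure D1:**
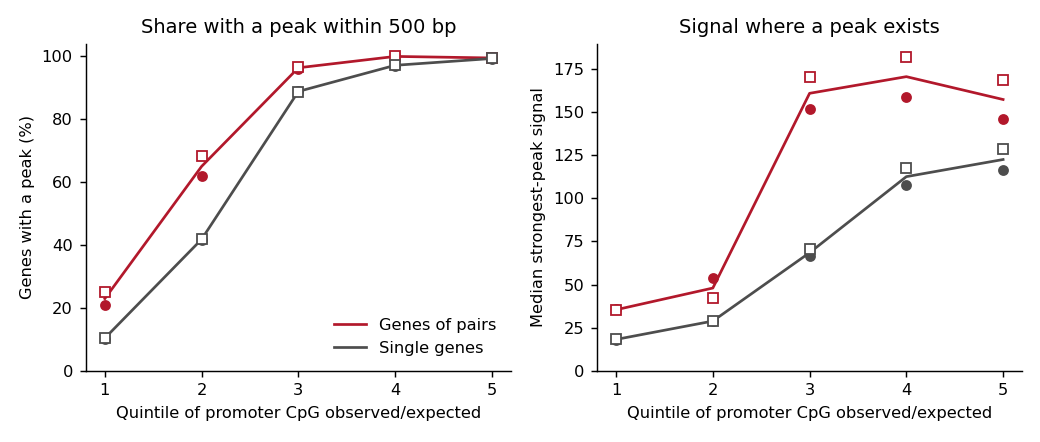
Genes with a peak within 500 bp of the most 5′ TSS (left, percent) and median signal of the strongest such peak (right, the authors' units) by quintile of promoter CpG observed over expected, for genes of pairs (red) and single genes (grey). Filled circles are replicate 1, open squares replicate 2 and lines their mean: the shares meet at 99.3% and 99.1% in the highest quintile, while the median signals there remain apart at 157 and 123.

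The strongest peak of a bidirectional promoter was also stronger than that of a single promoter. Signal is the authors' own value for each peak, used here to describe and rank peaks. The median over pair regions with a peak was 154 in replicate 1 and 172 in replicate 2 (163 ± 12.7). Single promoters had medians of 81.7 and 87.4 (84.6 ± 4.01), so pairs were higher by ratios of 1.89 and 1.97 (1.93 ± 0.0591). In replicate 1 the strongest signals ran from 12.9 to 764, with a 10th percentile of 77.2 and a 90th of 249. In replicate 2 they ran from 8.50 to 1059.5, with percentiles of 84.9 and 283. The median percentile of the strongest peak of a pair among all peaks of its list was 98.6 ± 0.0268, against 94.7 ± 0.0265 for single genes.

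The difference in signal was smaller at equal CpG and remained larger than the spread between replicates. Taken gene by gene within 500 bp of the TSS, the unweighted ratio was 1.90 ± 0.0629. Weighted to the pair genes' CpG quintiles, single genes had a median of 108 ± 7.56, and the ratio was 1.48 ± 0.0173. In the middle quintile the medians were 161 ± 13.1 for pair genes and 68.5 ± 2.82 for single genes. In the highest they were 157 ± 16.2 and 123 ± 8.22. Single promoters with a head-to-head lncRNA again lay between, at 127 ± 8.23 over the gap-extended windows and 129.5 ± 8.22 at equal CpG. Across the pairs themselves CpG and signal were nearly unrelated: Spearman's rho was 0.0217 in replicate 1 (710 pairs) and 0.0372 in replicate 2 (713 pairs). These points share a library and are given as a description.

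The most frequent number of peaks in a pair region was 2, held by 44.1% ± 2.02 of regions, and regions with 1 peak or 3 peaks were common. The number follows the flank, with 1.36 per region at 250 bp and 2.88 at 1 kb, and it was not compared at equal CpG. There were 2.00 peaks per region in replicate 1 and 2.02 in replicate 2 (2.01 ± 0.00962), against 1.16 ± 0.00673 in gap-extended single promoters and 1.74 ± 0.00602 in those with a head-to-head lncRNA. Among regions with at least 1 peak the means were 2.08 ± 0.00374 and 1.79 ± 0.00741 for pairs and single promoters. In replicate 1, 178 pair regions held 1 peak, 335 held 2, 166 held 3, 28 held 4 and 3 held 5. In replicate 2 the numbers were 191, 314, 173, 30 and 5. Regions with 3 or more peaks made up 27.6% ± 1.06 of pairs and 11.1% ± 0.268 of single promoters. The number of peaks in a given region was the same in both replicates in only 416 of 735 regions (56.6%).

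**Figure D2:**
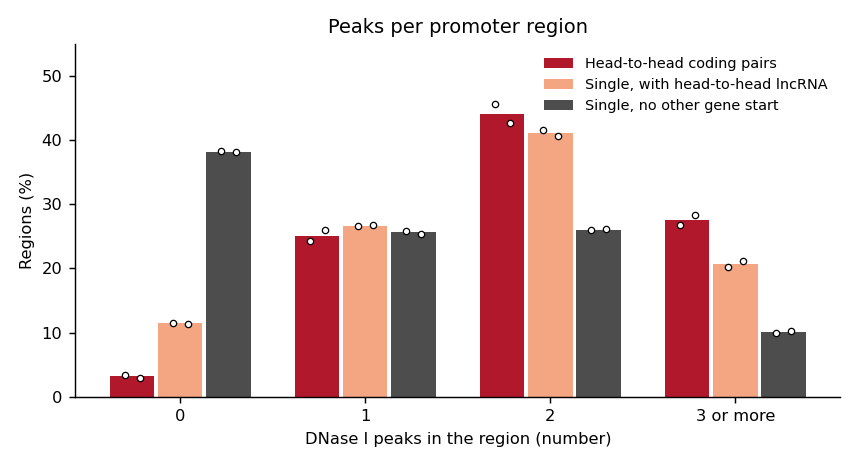
Share of regions (percent) with 0, 1, 2 and 3 or more peaks for head-to-head coding pairs (red), single promoters with a head-to-head lncRNA (orange) and single promoters with no other gene start within 1000 bp (grey), the latter 2 in gap-extended windows. Bars are means and circles the replicates: 3.20% of pair regions held no peak, against 11.5% and 38.2% of the single promoters.

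Adjacent peaks within a pair region were spaced by a median of 460 bp in replicate 1 and 440 bp in replicate 2, centre to centre. Within 500 bp of a TSS the spacing was 420 bp for both pair genes and single genes, the same value in each class and replicate. Peak width held almost no information. The regions contained 1436 distinct peaks in replicate 1 and 1448 in replicate 2, of which 9 and 8 were wider than 150 bp (0.627% and 0.552%). Over the whole lists the shares were 0.552% and 0.538%. The widest peaks of pair regions were 290 and 350 bp.

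The strongest peak lay in the shared upstream stretch of most pairs. Its centre was between the TSSs in 67.0% of the pairs with a peak in replicate 1 and 67.7% in replicate 2 (67.4% ± 0.495). It lay inside the minus-strand gene in 17.1% ± 0.148 and inside the plus-strand gene in 15.5% ± 0.642. In single promoters, 44.1% ± 0.619 of strongest peaks fell in a stretch of the same length upstream of the TSS. The median distance from the midpoint of the TSSs was 39 bp in replicate 1 and 34 bp in replicate 2, and the centre lay within 100 bp of the midpoint in 73.4% ± 0.278 of pairs. The median signed offset was -1.25 and 1.50 bp, with the plus-strand side positive, so neither strand was favoured beyond the 20 bp grid on which the authors' peaks start.

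Seen from each gene's own TSS, the strongest peak of a pair gene was further upstream. Its median position was -55.5 ± 1.41 bp, against -30.0 ± 0.707 bp for single genes, and it was upstream of the TSS in 83.1% ± 0.355 and 65.3% ± 0.760. Partners of a pair are mostly scored against the same peak, and a peak inside either gene is upstream of its partner. The values of pair genes therefore follow in part from the layout of pairs and are not a separate difference from single genes. The replicates placed the strongest peak of a pair alike: in 693 of the 710 pairs with a peak in both (97.6%, interval 96.2 to 98.6), the centres of the strongest peaks were less than 150 bp apart. In 447 of the 710 (63.0%) the strongest peak was between the TSSs in both replicates.

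**Figure D3:**
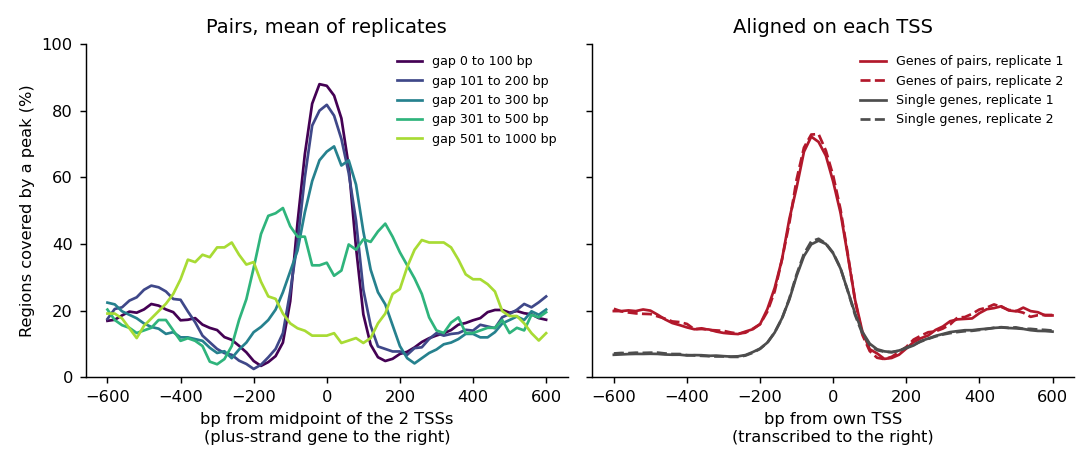
Share of regions covered by a peak (percent) by distance from the midpoint of the TSSs for pairs of 5 gap classes (left, mean of replicates), and by distance from each gene's own TSS for pair genes (red) and single genes (grey) in each replicate (right). Coverage is highest within 20 bp of the midpoint for gaps up to 300 bp and splits into flanking maxima for gaps above 300 bp; on the right it reaches 72.2% and 73.0% for pair genes and 41.0% and 41.6% for single genes.

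The layout of the open chromatin differed with the gap between the TSSs. Among the 307 pairs with a gap of 0 to 100 bp, a peak covered the midpoint in 86.3% of regions in replicate 1 and 88.6% in replicate 2. A single peak was the nearest peak to both TSSs in 99.7% and 99.3% of those with a peak. For gaps of over 100 to 200 bp (200 pairs) the latter shares were 97.9% and 98.5%, and for over 200 to 300 bp (96 pairs) 78.5% and 79.6%. They fell below the majority for gaps of over 300 to 500 bp (64 pairs), at 42.9% and 41.3%, and reached 14.1% in both replicates for over 500 to 1000 bp (68 pairs). In this widest class the midpoint was covered in only 10.3% and 14.7% of regions. Coverage there was highest 260 bp from the midpoint in replicate 1 (45.6%) and at -280 bp in replicate 2 (42.6%), which is near the TSSs themselves.

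The number of peaks grew with the gap. It was 1.83 ± 0.0299 per region at 0 to 100 bp, 1.945 in each replicate at over 100 to 200 bp, 2.02 ± 0.0442 at over 200 to 300 bp, 2.37 ± 0.0552 at over 300 to 500 bp and 2.66 ± 0.0832 at over 500 to 1000 bp. Single promoters extended by the same gaps went from 1.11 to 1.31. The share of regions with a peak in both replicates stayed between 94.1% and 98.4% in all 5 classes.

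Signal was highest at intermediate gaps. The median strongest signal was 128 and 145 in the replicates at 0 to 100 bp, 171 and 189 at over 100 to 200 bp, 196 and 215 at over 200 to 300 bp, 193 and 215 at over 300 to 500 bp, and 164 and 179 at over 500 to 1000 bp. The rise from the narrowest class to the class of over 200 to 300 bp (136 ± 12.3 to 206 ± 13.5) exceeded the spread between replicates, and both replicates showed it. The classes of over 200 to 300 and over 300 to 500 bp did not differ beyond that spread. Single promoters over the same windows stayed at 84.2 to 84.6. Across pairs, Spearman's rho of gap and signal was 0.30 in replicate 1 and 0.29 in replicate 2. Median CpG observed over expected was 0.777 in both of the narrowest classes and 0.635 in the widest, and its part in the pattern was not tested.

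**Figure D4:**
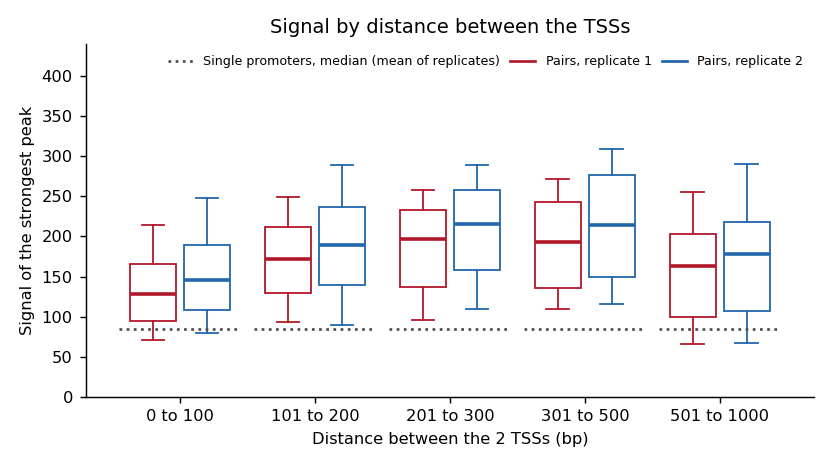
Signal of the strongest peak of each pair region (authors' units) by distance between the TSSs (bp), in replicate 1 (red) and replicate 2 (blue). Boxes span the quartiles with the median, whiskers the 10th to 90th percentiles, and dotted lines the median of single promoters in windows of the same width (84.2 to 84.6): the pair medians go from 128 and 145 in the narrowest class to 196 and 215 at over 200 to 300 bp.

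Values were also taken on both sides of the 1000 bp limit. The 15 pairs with a gap of 810 to 987 bp had a peak in both replicates in 14 cases, with median signals of 161 and 174. The 19 pairs just outside the rule, with gaps of 1009 to 1199 bp, had a peak in both in 17 cases (89.5%), with medians of 128 and 155. A further 445 opposite-strand pairs whose 5′ ends overlap by up to 1000 bp are outside the rule as well. Of these, 435 (97.8%) had a peak in both replicates, with medians of 130 and 145.

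Hjurp/Trpm8 stood first of all pairs by signal, with signals of 764 and 1059.5. Hjurp encodes the chaperone that loads the centromeric histone CENP-A, and Trpm8 encodes a cold-sensing ion channel. The TSSs are 28 bp apart, and the peak covered both in each replicate. Hjurp/Trpm8 lay far from the next pairs, since the next highest value among the 10 pairs named by rank was 442, of Rita1/Ddx54 in replicate 2. Cdca2/Kctd9 had 367 and 381 with a gap of 96 bp, and Cdca2 encodes a targeting subunit of protein phosphatase 1 on mitotic chromatin. Prr11/Ska2, in which Ska2 encodes a subunit of the spindle and kinetochore complex, had 355 and 385. The peak of this pair covered part of the stretch shown above and held only some of the 6 NFY matches there.

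Aamp/Pnkd had 339 and 406. In L3hypdh/Jkamp the strongest peaks of the replicates were different ones: replicate 1 had 348 at 181.5 bp from the midpoint, and replicate 2 had 379.9 at 1.5 bp and 372 at 201.5 bp. Srgap2/Fam72a had 357 at -72 bp and 349 at 88 bp, which are also separate peaks. In Gm10644/Asf1b, whose plus-strand gene encodes a histone chaperone, the values were 306 and 336. Fbxo24/Lrch4 and Fbxo24/Gm20605 share 1 peak of 309 and 362 and are not independent. Rita1/Ddx54 differed from most of these in position. Its strongest peak (326 and 442) was centred 311.5 bp from the midpoint, inside Ddx54, an RNA helicase gene, while a weaker peak between the TSSs had 146 and 167.

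**Figure D5:**
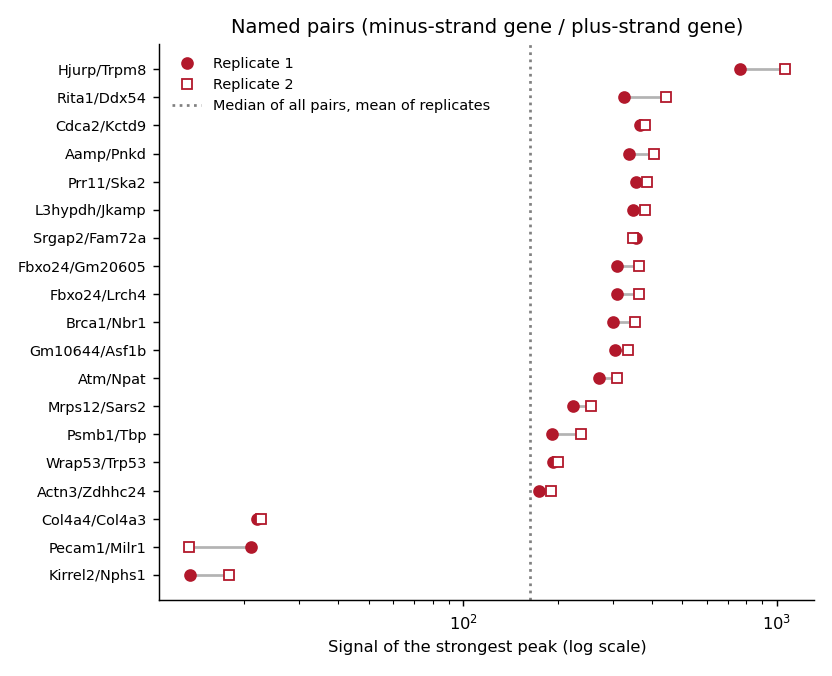
Signal of the strongest peak (log scale, authors' units) in replicate 1 (filled circles) and replicate 2 (open squares) for the 10 pairs with the highest mean rank and 9 of the pairs named whatever their values. The dotted line is the median of all pairs (163): Hjurp/Trpm8 stands at 764 and 1059.5, and Col4a4/Col4a3, Pecam1/Milr1 and Kirrel2/Nphs1 lie below 23.

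Of 21 gene pairs listed as well-known neighbours, 10 met the rule. In 6 of them the strongest peak had a signal of at least 175 in both replicates. Atm/Npat, the DNA damage kinase and a regulator of histone genes, had a peak of 272 and 309 centred 2 bp from the midpoint of a 307 bp gap. Mrps12/Sars2 had 225 and 256 at 9.5 bp from the midpoint, over most of the sequence shown above, whose 4 NFY matches were not all inside the peak. Psmb1/Tbp, a proteasome subunit and the TATA-binding protein, had 192 and 237. Wrap53/Trp53 had 194 and 200.7, and Actn3/Zdhhc24 had 175 and 190. Brca1/Nbr1 had a peak of 166 and 220 that covered the TSS of Brca1 and ended before that of Nbr1, centred at -56.5 and -36.5 bp from the midpoint. Replicate 1 had a further peak of 97.7 at 263.5 bp. The strongest peak of the pair (299.6 and 353) lay 643.5 and 663.5 bp from the midpoint inside Nbr1, an autophagy receptor gene. It reached into the region by its edge alone. This edge peak puts Brca1/Nbr1 among the 6, since the peak over the TSS of Brca1 had 166 in replicate 1.

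The 3 weakest of these 10 pairs hold genes of glomerular or endothelial cells. Col4a4/Col4a3 encodes chains of the collagen network of the mature glomerular basement membrane. It had 1 peak in each replicate, of 22.0 and 22.6, which covered the midpoint of the 72 bp gap. These values lie at percentiles 62.6 and 64.5 of all peaks in their lists, and CpG observed over expected was 0.432 there. Kirrel2/Nphs1 encodes 2 slit diaphragm proteins. Its only peak had 13.5 and 18, between the TSSs and 187 bp from the midpoint on the Kirrel2 side. The strongest peak within 500 bp of any annotated TSS of Nphs1 had 74.9 and 67.3. It was centred 19880.5 bp downstream of the most 5′ TSS and 330.5 bp downstream of the nearest annotated TSS of the gene. Pecam1/Milr1, an endothelial adhesion molecule and a mast cell receptor, had 21.2 and 13.4. In whole tissue, a weak signal in all cells and a strong signal in few cells cannot be told apart.

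The share of genes in head-to-head pairs was also counted for gene families, by gene symbol, beside the 6.97% of all genes and with no test. Mitochondrial ribosomal proteins had 18 of 78 genes in pairs (23.1%), respiratory chain and ATP synthase genes 23 of 104 (22.1%), DNA replication and repair genes 23 of 94 (24.5%) and histones 27 of 76 (35.5%). Proteasome genes had 7 of 49 (14.3%), tRNA synthetases 5 of 34 (14.7%) and cytosolic ribosomal proteins 8 of 79 (10.1%). Zinc finger genes named Zfp had 20 of 385 (5.19%), and none of 1128 olfactory receptor genes was in a pair. Counting by symbol takes assembly factors such as Ndufaf2 and Cox11 into the respiratory chain family. These shares describe the annotation and not the DNase-seq data.

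All 18 mitochondrial ribosome pairs and all 23 respiratory chain pairs had a peak in both replicates. Their median signals were 157 ± 25.5 and 157 ± 17.5, close to the 163 ± 12.7 of all pairs. The mitochondrial ribosome pairs ran from Zfp661/Mrps5 (44.5 and 52.7) to Mrps18b/Ppp1r10 (274 and 296). The respiratory chain pairs ran from Fam126b/Ndufb3 (78.8 and 100.02) to Wdr4/Ndufv3 (232 and 312), with Atp5c1/Kin, the gamma subunit of ATP synthase, at 207 and 264. All 7 proteasome pairs were open with a median of 138 ± 4.80, among them Psme2/Rnf31 (238 and 256). All 5 tRNA synthetase pairs were open with a median of 193 ± 5.41, from Orc3/Rars2 (109 and 127) to Mrps12/Sars2.

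Of 23 DNA replication and repair pairs, 22 had a peak in both replicates, with a median of 173 ± 15.9. Xrcc3/Zfyve21 had 263 and 258, and Mcm4/Prkdc, which joins a subunit of the replicative helicase to the catalytic subunit of the DNA-dependent kinase, had 212 and 239. Emc3/Fancd2 had 66.7 and 82.0, the lowest of those with a peak in both. In Pinlyp/Xrcc1 the only peak in the region was 1 of 12.2 in replicate 2. A peak of 251 and 282 was centred 746.5 bp downstream of the most 5′ TSS of Xrcc1 and at -114.5 bp from another of its TSSs (negative values are upstream). Of the 18 zinc finger pairs 17 had a peak in both replicates, as did 22 of 23 pairs with a Tmem gene, with medians of 166 ± 21.8 and 162 ± 16.9. The background beside these counts is the 96.6% of all pairs.

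Histone pairs split into open regions and regions with no peak. In 13 of the 14 pairs both genes encode histones. Most of these join an H2A to an H2B gene, and Hist1h2bh/Hist1h3f joins an H2B to an H3 gene. In 11 pairs there was a peak in both replicates, with a median of 192 ± 0.133. They ran from Hist2h2ac/Hist2h2be (170 and 186) and Bola1/Hist2h2ab (174 and 139) to Hist1h2ac/Hist1h2bc (257 and 309.7). The other 3 pairs, Hist1h2bq/Hist1h2ao, Hist1h2ap/Hist1h2br and Hist1h2ba/Hist1h2aa, had none. The histone genes are close copies of each other, and the reads were 36 nt long per the file headers. No 36-mer of the Hist1h2bq/Hist1h2ao and Hist1h2ap/Hist1h2br regions occurs only once in the genome (0% unique), so reads from them cannot be placed uniquely. Their lack of a peak is therefore no measure of closed chromatin. Of the 11 open histone pairs, several were also poor in unique sequence, such as Hist1h2bf/Hist1h2ad (41.4% unique, 236 and 239), and their values are uncertain. Hist1h2ba/Hist1h2aa, which encodes testis histone variants, was 85.0% unique and CpG-rich (0.709), and had no peak in either replicate.

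The 22 pairs without a peak were poor in CpG. Their median CpG observed over expected was 0.273, against 0.769 for the 710 pairs with a peak in both replicates, while the median gaps were 130.5 and 127.5 bp. In 13 of the 22, at least 1 gene had a peak in both replicates within 500 bp of another of its TSSs. These pairs have no peak within 500 bp of the most 5′ TSS, so such a peak is nearer to another TSS by construction. The same count was not made over all genes, and the signals went down to 13.2 and 13.1 for Il11 of Il11/Tmem190. Rps2 of Rnf151/Rps2, a ribosomal protein gene, had 229.7 and 271, centred 1879.5 and 1899.5 bp downstream of the most 5′ TSS, Ccnt1 of Ccnt1/4930415O20Rik had 202 and 256, Dgcr2 of Dgcr2/Tssk2 had 171 and 208, and Trim28 of Slc27a5/Trim28 had 113 and 126. In 3 of the 22, fewer than 50% of the region's 36-mers were unique: both histone pairs above and Gml/Gml2 (48.9%). That left 6 pairs with neither a peak at another TSS nor low uniqueness. Among those named by CpG content were Lypd4/Dmrtc2 (CpG observed over expected 0.555), Patl2/Terb2 (0.430) and Hist1h2ba/Hist1h2aa. The others of the 6 were Gm12355/Gsdma3, Smyd1/Cd8b1 and Gm20075/Gm17190. Dmrtc2 and Terb2 are genes of the male or meiotic germ line, but such genes were not counted over the 22 pairs. Aspa/Gm49340 and Aspa/Spata22 share the same start sites and had no peak there. Aspa had a peak of 44.0 in replicate 1 and of 43.1 in replicate 2 near other TSSs. The nearest TSS differed between the replicates, at 3119 and 2789 bp from the most 5′ one.

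The regions with the most peaks were those with wide gaps. Smim7/Tmem38a (gap 967 bp), Btf3l4/Txndc12 (987 bp) and Fiz1/Gm44973 (799 bp) held 5 peaks in each replicate, and Cbx5/Hnrnpa1 (616 bp) and P3h4/Fkbp10 (861 bp) held 4 and 5. In Cbx5/Hnrnpa1, which joins the gene of heterochromatin protein HP1 alpha to that of an RNA-binding protein, each gene had its own strong peak. The peaks next to the TSSs had 225 and 274 on the Cbx5 side and 259.9 and 283 on the Hnrnpa1 side. In Fiz1/Gm44973 the 5 peaks were of like strength, from 89.1 to 152 in replicate 1 and from 89.6 to 191 in replicate 2. In Smim7/Tmem38a the side of Smim7 was stronger: its peak between the TSSs had 226 and 202, against 50.8 and 53.9 for the peak nearest to the TSS of Tmem38a, a gene of an intracellular cation channel.

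Signals of pairs varied little between the replicates. The log2 ratio of replicate 2 to replicate 1, centred on the median of all promoters (0.13), had a median of 0.03 and an SD of 0.17 over 710 pairs. Over 11180 single genes the median was -0.01 and the SD 0.25. None of the 710 pairs lay beyond 2-fold, against 0.277% of single genes. Taken as 3 counts of the total, this allows a share of up to 0.423%, which is an approximate limit and not an exact interval. Spearman's rho between the replicates was 0.969 across pairs and 0.985 across single genes.

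The pair that differed most was Txndc9/Eif5b, with a centred log2 ratio of -0.91. Replicate 1 listed a peak of 217 at -616 bp from the midpoint, inside Txndc9, that reached into the region by its end alone. Replicate 2 had a like peak of 242 at -636 bp, which ended outside the region and was not counted. The peak near the TSSs had 123 and 126, so the ratio compared different peaks and came from the edge of the region. Pecam1/Milr1 followed with -0.79 and Odf3l1/Cspg4 with -0.57 (97.5 and 72.0). Cspg4 encodes the NG2 proteoglycan of pericytes. The largest ratios in the other direction were 0.53 each, in Zdhhc3/Exosc7 (70.3 and 111), Kctd19/Lrrc36 (22.5 and 35.4) and Chchd4/Tmem43 (188 and 296).

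The strongest peaks of pairs differed from those of single promoters in short motifs. Shares are of the 150 bp about the centre of the strongest peak with an exact match on either strand, each motif counted whether or not it overlapped another. The ETS motif CCGGAAG was in 21.7% ± 0.363 of pairs and 10.9% ± 0.0403 of single genes, and in 12.9% ± 0.0580 of single genes at equal CpG quintiles. The NFY motif CCAAT was in 39.4% ± 0.479, 26.7% ± 0.156 and 28.1% ± 0.125. The NRF1 core CGCATGCG was in 4.92% ± 0.0147 (35 of 710 and 35 of 713 pairs), 2.57% ± 0.0953 and 3.30% ± 0.123. NFY, NRF1 and the ETS family are activators bound at many CpG-rich promoters. YY1 (AAGATGGCG) was in 2.25% ± 0.205 (17 of 710 and 15 of 713 pairs), 1.29% ± 0.00184 and 1.60% ± 0.0164. Within the highest CpG quintile YY1 was in 1.66% of pairs and 1.92% of single genes. That quintile holds only some of these few pairs, so no order is read from it.

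Other motifs differed less or the other way. The SP/KLF motif GGGCGG was in 57.5% ± 0.0274 of pairs, 51.6% ± 0.273 of single genes and 59.8% ± 0.264 at equal CpG, so pairs were above single genes before weighting and below after it. The CRE TGACGTCA was in 3.86% ± 0.0879 of pairs (27 of 710 and 28 of 713) and 3.15% ± 0.0361 of single genes at equal CpG. Within the highest quintile it was in 3.81% and 3.94%. The E-box CACGTG was in 7.38% ± 0.0774 of pairs and 6.88% ± 0.168 of single genes at equal CpG. The TATA motif TATAAA was in 1.34% ± 0.0954 of pairs (9 of 710 and 10 of 713) and 2.10% ± 0.0306 of single genes at equal CpG. Within the highest quintile it was in 1.32% and 1.82%. So few pairs had this motif that no order is read from these shares. The ratio of pairs to single genes at equal CpG was highest for ETS, at 1.68 ± 0.0206. The SDs come from replicates that share nearly all of their peaks and do not cover the sampling of promoters. A match is a description of the sequence and not of binding.

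Regions that are poor in unique sequence are more frequent among single genes: 5.80% of single genes and 1.50% of pairs had fewer than 50% unique 36-mers. With windows of at least 90% unique 36-mers only, 97.5% of pair regions and 72.2% of single promoters had a peak, a difference of 25.3 percentage points in place of 32.4, and the ratio of signals was 1.92.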

How the data were processed

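DNase-seq peaks of newborn mouse kidney were analysed in 1 group of 2 replicates. The authors deposited 1 peak list per replicate (narrowPeak format, assembly mm10), each derived from 1 alignment of 36-nt reads, per the file headers, so replicates were not pooled. Column 7 holds the signal that the authors gave each peak. Its scaling, the aligner, the peak caller, the thresholds and the depth were details not given in the sources used here. Values of −log10 p, also deposited (column 8), were not used.

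Members and lists were chosen with earlier results of these data known. The TSSs came from GENCODE M21. A peak counted when it overlapped a region by at least 1 bp, and the strongest peak was that with the highest signal. Single promoters were averaged over windows extended by each pair's gap. CpG weighting used quintiles of all autosomal protein-coding genes. Uniqueness was the share of 36-mers found once in chromosomes 1 to 19, X and Y on either strand. Families followed gene symbols.

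Named pairs were the 10 with the highest mean rank of signal, the 8 without a peak that had the highest CpG content, the 5 with most peaks, the 3 highest and the 3 lowest replicate ratios, and those of 21 listed neighbours that met the rule. Other pairs, and the sequences of Aamp/Pnkd, Mrps12/Sars2 and Hist1h2ac/Hist1h2bc, were chosen after their values were seen. The stretches shown were limited to the span between the TSSs after the data were seen. A few pairs in the counts are not reported here by name. No test was made. The steps were tested on simulated peak lists. Alternatives covered gap, flank, annotation, overlap rule, list length, single promoters, CpG content and left-out replicates. Python 3.11.15, numpy 2.4.6, pandas 2.3.3, numba 0.67.0 and matplotlib 3.10.9 were used.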

Additional observations from a re-analysis of the deposited data

How the results depend on the processing

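Of 65 alternative values, 33 stayed within 1 SD of the replicates and 32 moved further, and in every setting run pairs had the higher share with a peak and the higher signal. No paired analysis was possible because there is 1 group. The share of pair regions with a peak (96.8%) was 96.3% with a flank of 250 bp or the upper 50% of peaks by signal, 97.2% with 5′-overlapping pairs and 97.5% with at least 90% unique 36-mers. The share of single promoters (64.4%) was 64.3% for gaps up to 500 bp, 62.0% and 67.2% for flanks of 250 bp and 1 kb, 64.6% for the gaps with overlapping pairs, 66.0% with basic transcripts, 63.9% by peak centre, 57.7% with the upper 50% of peaks, 64.01% unextended, 61.8% clear of any gene start, 72.2% with unique sequence and 93.0% at the pairs' CpG quintiles. Peaks per pair region (2.01) were 1.94 for gaps up to 500 bp, 1.36 and 2.88 for the flanks, 2.15 with overlapping pairs, 2.05 with basic transcripts, 1.82 by peak centre, 1.80 with the upper 50% of peaks and 2.02 with unique sequence. The ratio of median signals (1.93) was 1.82 with overlapping pairs, 1.69 with the upper 50% of peaks and 2.03 against promoters clear of any gene start. Taken by gene within 500 bp of the TSS, the ratio was 1.90 unweighted and 1.48 weighted to the pairs' CpG quintiles. The share of strongest peaks between the TSSs (67.4%) was 66.6% for gaps up to 500 bp, 69.1% and 65.9% for the flanks, 51.2% with overlapping pairs, where the span between the TSSs is inside both genes, and 69.8% with basic transcripts. Leaving out 1 replicate gave 96.6% to 97.0%, 64.4% to 64.5%, 2.00 to 2.02, 1.89 to 1.97 and 67.0% to 67.7%. The settings of 1 pair per locus and of unique sequence were chosen after seeing the data. Depth is unknown, so a region without a peak is below the authors' threshold and not shown to be closed.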
